A study of Mus musculus with 47 samples.

Results

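Peaks at 3 mouse genes that encode inhibitors of cyclin-dependent kinases, Cdkn1a, Cdkn2a and Cdkn2b, were taken from ChIP-seq peak lists of control livers and Myc-driven liver tumours. All peaks that overlapped a 30 kb window around Cdkn1a (mm9, chr17:29215000-29245000) or a 50 kb window around Cdkn2a and Cdkn2b (mm9, chr4:88915000-88965000) were included. Of 713214 peaks in 46 lists, 121 met this rule, 86 of them in the Cdkn1a window and 35 in the Cdkn2a and Cdkn2b window.

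Livers of FVB mice were profiled for Myc and for RNA polymerase II (RNAPII), for the promoter-associated histone mark H3K4me3, and for H3K27ac, a mark of active promoters and enhancers. Control liver 1 carried the tet-Myc transgene without expressing it, control liver 2 carried LAPtTA, the liver-specific transactivator that drives tet-Myc, and control livers 3 and 4 were wild type. Tumour nodules came from tet-Myc/LAPtTA mice in which expression had been induced in utero, either with tet-Myc on ("tumours") or after doxycycline food had kept it off for 16 h ("switched-off tumours"). Myc was mapped in 4 control livers, 6 tumours and 3 switched-off tumours, and each other antibody in 4, 4 and 3. The treatment protocol named a wild-type tet-Myc and the mutant V394D, which does not bind the transcription factor Miz1. The sample labels did not give the form carried by each tumour, and a tag for the wild-type form stood in the headers of the 8 histone lists of tumours only. Whether the replicates of a group were separate animals is not stated, so each p-value reflects only scatter among these libraries, which may be technical. In the main fits that scatter was taken partly, and for Myc wholly, from regions of like mean coverage. The headers of the H3K4me3 and H3K27ac lists carried 11 distinct identifiers, and the same number had the same identifier under both marks in all 11 cases. Between other antibodies the same tumour number need not be the same tumour.

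The product of Cdkn1a, p21, binds cyclin-CDK complexes and slows entry into S phase, and the gene is a classical target of p53. Cdkn2a has separate promoters for transcripts that encode Ink4a, an inhibitor of Cdk4 and Cdk6, and Arf, which stabilises p53 by binding Mdm2. Cdkn2b encodes another inhibitor of Cdk4 and Cdk6. Myc is known both to activate genes through E-boxes and to repress genes, Cdkn1a and Cdkn2b among them, through Miz1, and high Myc activity is known to induce Arf.

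Promoter sequences are shown for all starts but the upstream one of Cdkn1a, because the 3 genes differ in the marks they carried. Whether peaks lay at that upstream start was not determined, since the sequences are of another build than the peaks. RefSeq (GRCm38.p6) lists 5 starts for the 3 genes, and all 3 genes were matched by symbol. The 250 bases before a start are given 5′ to 3′ on the strand of the gene, the plus strand for Cdkn1a and the minus strand for Cdkn2a and Cdkn2b. Capitals mark GGGCGG, the core of the Sp1 motif.
Cdkn1a, downstream start: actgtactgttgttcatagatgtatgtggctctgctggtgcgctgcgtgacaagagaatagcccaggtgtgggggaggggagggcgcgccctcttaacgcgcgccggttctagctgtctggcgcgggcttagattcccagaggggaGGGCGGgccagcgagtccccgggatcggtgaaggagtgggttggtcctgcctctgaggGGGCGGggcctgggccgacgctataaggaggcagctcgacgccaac
Cdkn2a, outer start (Arf): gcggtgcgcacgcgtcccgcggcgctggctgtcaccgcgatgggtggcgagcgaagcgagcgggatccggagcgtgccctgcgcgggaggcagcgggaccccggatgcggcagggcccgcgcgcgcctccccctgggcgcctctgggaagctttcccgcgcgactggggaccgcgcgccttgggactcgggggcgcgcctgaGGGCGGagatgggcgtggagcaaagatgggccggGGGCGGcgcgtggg
Cdkn2a, inner start (Ink4a): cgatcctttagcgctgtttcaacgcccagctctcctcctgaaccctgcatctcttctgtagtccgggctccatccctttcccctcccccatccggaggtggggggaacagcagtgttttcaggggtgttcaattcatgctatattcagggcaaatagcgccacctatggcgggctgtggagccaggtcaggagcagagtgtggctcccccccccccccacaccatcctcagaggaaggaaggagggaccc
Cdkn2b: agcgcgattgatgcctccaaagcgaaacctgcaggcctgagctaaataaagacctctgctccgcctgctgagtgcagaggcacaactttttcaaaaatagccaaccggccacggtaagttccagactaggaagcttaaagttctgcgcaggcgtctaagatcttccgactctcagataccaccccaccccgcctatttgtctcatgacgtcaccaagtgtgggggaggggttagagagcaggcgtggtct
The outer Cdkn2a promoter was the richest of the 5 in G and C (78.4%, with 40 CpG dinucleotides), against a median of 52.4% and 6 over 32851 RefSeq promoters. The downstream Cdkn1a promoter held 64.8% and 19, the inner Cdkn2a promoter 60% and 7, the Cdkn2b promoter 53.6% and 12, and the upstream Cdkn1a promoter, not printed, 54% and 2. GGGCGG, searched on both strands, occurred 2 times in the downstream Cdkn1a promoter and 2 times in the outer Cdkn2a promoter and in none of the other 3, against 32.7% of all promoters with at least 1 match. CACGTG, the E-box bound by Myc, occurred in none of the 5 and in 6.02% of all promoters. These matches describe only the letters in these 250 bases.

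Overlapping peaks of an antibody (1 bp or more) were joined into regions, and the value of a library was its coverage, the percent of a merged region's length under its peaks. The windows held 6 Myc, 3 RNAPII, 5 H3K4me3 and 1 H3K27ac region, and 14 of these 15 had a peak in at least 2 libraries and were tested. The list lengths differed most for Myc, with 1002 to 8499 peaks in control livers, 19269 to 55763 in tumours and 98 to 331 in switched-off tumours. H3K4me3 lists held 12999 to 15821, 14502 to 14942 and 18502 to 19876 peaks, so every switched-off list was longer than every tumour list. No read counts are given, so depth is unknown and a region without a peak is one in which none was called. Coverage measures the width of called peaks and not their height. In tissue, a change in the share of a cell type and a change within cells cannot be told apart.

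The question asked of these windows was what Myc, RNAPII and both histone marks did in tumours and after Myc was switched off. At Cdkn1a, coverage by Myc, RNAPII and H3K27ac was called higher in tumours than in control liver. So it was at 47.2%, 3.89% and 9.88% of all regions tested for these antibodies. For RNAPII the tumours and control livers overlapped there. After Myc was switched off no Myc peak was called there, as at 98.1% of all Myc regions with a peak in all 6 tumours. RNAPII and H3K27ac coverage at Cdkn1a was still called higher than in control liver, as at 3.33% and 30.6% of all regions. Several of these calls were lost under the alternatives given below. The Cdkn2a and Cdkn2b window held 24 H3K4me3 peaks over the 11 libraries, against 23 in the Cdkn1a window, with at least 1 in every library. It held 8 Myc peaks against 24, 3 RNAPII peaks against 21, and no H3K27ac peak against 18.

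In RefSeq, the gene before Cdkn1a is Trp53cor1, a long noncoding RNA gene transcribed away from it, and the gene after it is Rab44. Peaks in the Cdkn1a window fell into an upstream group at the edge of the window on the Trp53cor1 side and a group at Cdkn1a itself. Whether the upstream group lies at the start of Trp53cor1 was not determined, since the mm9 position of that gene was not used here. The map of peaks in the Cdkn1a window shows both groups.

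**Figure D1:**
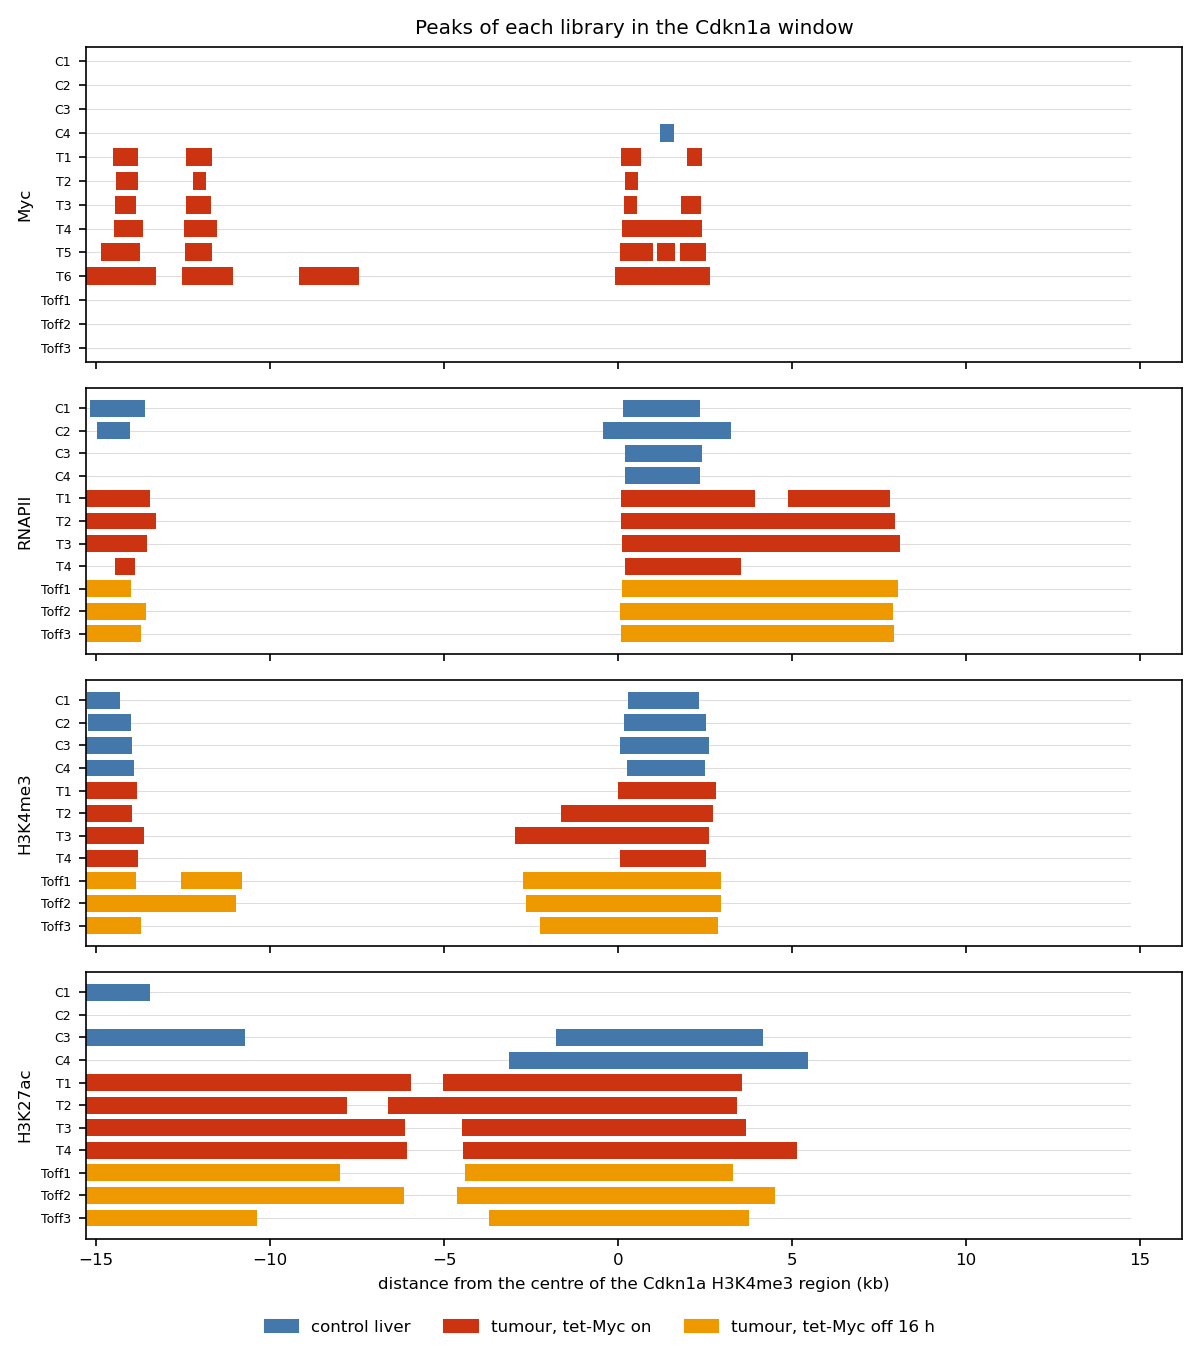
Peaks of each library in the Cdkn1a window, cut at the window edges, by antibody (rows are libraries, C control liver, T tumour, Toff switched-off tumour) against distance in kb from the centre of the H3K4me3 region at Cdkn1a. Myc peaks appear in all 6 tumours and no switched-off tumour, and RNAPII peaks at Cdkn1a reach farther to the right in all 4 tumours and all 3 switched-off tumours than in any control liver, by the least in tumour 4.

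Myc was called at Cdkn1a in all 6 tumours. In the region chr17:29230204-29232924 the tumours had coverages of 36.0%, 14.7%, 35.3%, 84.4%, 81.6% and 100%. Control liver 4 had 14.0%, the other 3 control livers 0, and the 3 switched-off tumours 0. Every tumour therefore lay above every control and switched-off library, although tumour 2 was close to control liver 4. Coverage was 55.2 ± 13.2 percentage points higher in tumours than in control liver (limma difference ± SE, adjusted p = 0.000163) and 58.7 ± 14.5 points lower in switched-off tumours than in tumours (limma, adjusted p = 0.000282). Both calls at Cdkn1a were lost with peaks above the median score alone (41.1 and -41.1 points, limma, adjusted p = 0.0714 and 0.110) and with each library's mean coverage, which differs between the groups, as a covariate (10.1 and -11.4 points, limma, adjusted p = 0.386 and 0.369). By Fisher's exact test on presence the difference from control liver did not pass either (adjusted p = 0.104).

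Upstream of Cdkn1a, Myc was called at a pair of sites in every tumour and in no other library. Of all Myc regions tested, 34.9% had a peak in all 6 tumours, and 56.6% of those had none in control livers. At site 1, chr17:29214663-29217017, the tumours had 30.3%, 26.6%, 26.7%, 35.8%, 47.4% and 100% coverage. At site 2, chr17:29217761-29219230, they had 49.5%, 26.1%, 50.0%, 65.9%, 53.3% and 100%. Tumour 6, which has the longest Myc list, was the widest at both sites. At site 2 coverage was 57.4 ± 14.0 points higher in tumours than in control liver (limma, adjusted p = 0.000203) and 57.4 ± 15.3 points lower after Myc was switched off (limma, adjusted p = 0.000803). At site 1 tumours exceeded control liver by 44.5 ± 17.9 points (limma, adjusted p = 0.0296), and the difference of -44.5 ± 19.6 points between switched-off tumours and tumours did not pass (limma, adjusted p = 0.0522). It passed without tumour 1, 2, 3, 4 or 6 (limma, adjusted p from 0.00541 to 0.0465) and by Fisher's exact test on presence (adjusted p = 0.0347). On leaving out any other library it did not pass (limma, adjusted p from 0.0586 to 0.144). The call at site 1 was lost on leaving out any 1 control liver (limma, adjusted p from 0.0735 to 0.0764), and with the wild-type control livers alone (0.194), with the same difference of 44.5 points. It was also lost with peaks up to 500 bp apart merged (35.9 points, adjusted p = 0.115) and with each library's mean coverage as a covariate (7.90 points, adjusted p = 0.494). At site 2 the calls were kept under every alternative run, but with that covariate the differences were 26.0 points (limma, adjusted p = 0.0204) and -24.4 points (limma, adjusted p = 0.0412). Tumour 6 also had a peak at chr17:29221131-29222834, where no other library had one.

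All 3 tested Myc regions of the Cdkn1a window were thus called higher in tumours, where 47.2% of all 39145 Myc regions tested were, and 30.8% had tumours wholly above control livers. Of the 3, 2 were called lower in switched-off tumours than in tumours, against 44.0% of all regions, and in 34.9% the switched-off tumours lay wholly below the tumours. The counts in the Cdkn1a window are read against these shares, which are large. The median difference between tumours and control liver was 44.5 points over the 5 Myc regions of both windows and 40.0 points over all regions. Between switched-off tumours and control liver, limma called no Myc region of either window, and none had an unadjusted p under 0.05. Of all regions, limma called 0.00511% higher and 0.0613% lower in that comparison. Fisher's exact test on presence called no Myc region of the whole genome in it, so its lack of calls here decides nothing.

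Within its own list, the best Myc peak of the Cdkn1a window stood between percentiles 66.7 and 94.2 of the authors' peak scores in the 6 tumours. In each tumour this peak lay at an upstream site. The only peak of control liver 4 lay in the region at Cdkn1a, at percentile 25.0. In that region the best peaks of tumours 1 to 6 stood at percentiles 28.3, 24.7, 22.5, 63.4, 66.1 and 73.7, so tumours 2 and 3 ranked below control liver 4. The score was used only for such ranks, and ranks from lists of different length show no change. With every tumour list cut to its 19269 best-scored peaks, an alternative added after the list lengths were seen, both upstream sites still had a peak in 6 of 6 tumours and the Cdkn1a region in 5 of 6.

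**Figure D2:**
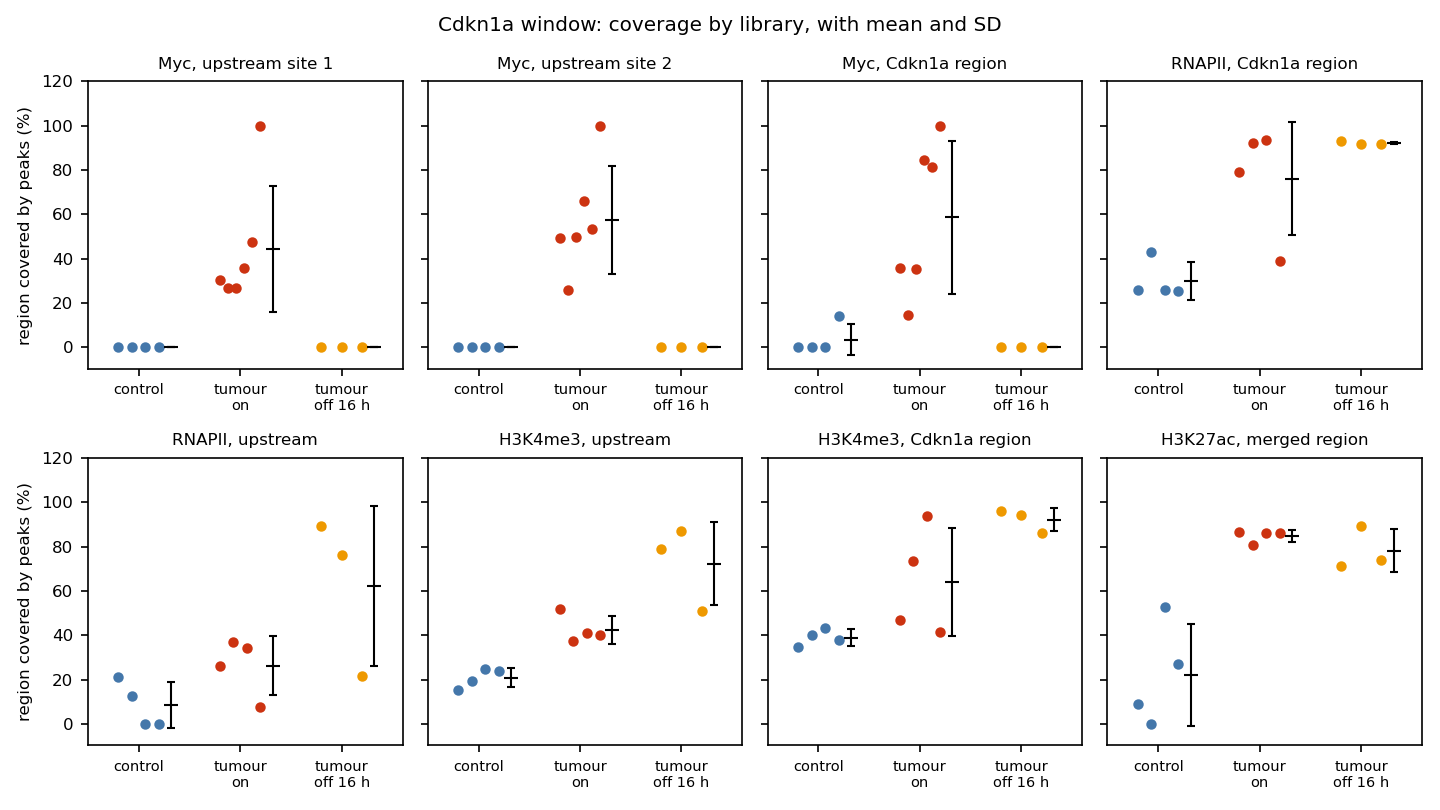
Percent of each merged region in the Cdkn1a window covered by peaks, by antibody and region, with a point for each library in control livers, tumours and switched-off tumours, and the mean with its SD beside the points. Myc coverage is 0 in the 3 switched-off tumours in each Myc panel, whereas RNAPII coverage at Cdkn1a stays at 91.8% to 93.0% in them.

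RNAPII, the enzyme that transcribes protein-coding genes, covered Cdkn1a in all 11 libraries and reached farther downstream in tumours. In the region chr17:29229867-29238407 the control livers had 25.7%, 42.9%, 25.8% and 25.3% coverage. The tumours had 79.4%, 92.2%, 93.7% and 39.1%, and the switched-off tumours 93.0%, 91.8% and 92.0%. Tumour 4 lay below control liver 2, so those groups overlapped, while all 3 switched-off tumours lay above every control liver. The width of the RNAPII peaks was 2157 to 3661 bp in control livers, 6779 bp in 2 peaks, 7879, 8005 and 3339 bp in the tumours and 7841 to 7944 bp in switched-off tumours. Their last bases lay between positions 29232639 and 29233527 in control livers and between 29238193 and 29238349 in switched-off tumours. In tumours 1, 2 and 3 they lay at 29238116, 29238245 and 29238407, and in tumour 4 at 29233823. All 4 tumours thus reached beyond the control livers, with tumour 4 close to control liver 2.

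The RNAPII difference between tumours and control liver at Cdkn1a was 46.2 ± 12.1 points (limma, adjusted p = 0.0123), in a comparison that called 3.89% of 16931 regions higher. Without tumour 2 the adjusted p was 0.0647 and without tumour 3 it was 0.0547 (limma), and with the wild-type control livers alone it was 0.0690. Between switched-off tumours and control liver the difference was 62.3 ± 13.0 points (limma, adjusted p = 0.00426), where 3.33% of regions were called higher and in 8.94% the groups did not overlap in this direction. This call was kept on leaving out any 1 library. Between switched-off tumours and tumours it was 16.1 ± 13.0 points and did not pass (limma, adjusted p = 0.555). That comparison called none of the 3 RNAPII regions of both windows and none had an unadjusted p under 0.05, against 2.43% of all regions called higher. Fisher's exact test on presence called no RNAPII region anywhere in the genome, so its lack of calls here decides nothing. Median peak width over whole lists was 2170 to 2782 bp in control livers, 1928 to 4811 bp in tumours and 2590 to 4190 bp in switched-off tumours. Its part in the longer RNAPII peaks at Cdkn1a was not tested.

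Upstream of Cdkn1a, RNAPII peaks in the region chr17:29209522-29217026 covered 21.2%, 12.7%, 0 and 0 in control livers. They covered 26.1%, 37.1%, 34.5% and 7.53% in tumours and 89.4%, 76.3% and 21.5% in switched-off tumours. Switched-off tumour 1 was the highest, and switched-off tumour 3 lay within the range of the tumours. Of the 76.3% in switched-off tumour 2, a peak that overlapped the window gave 25.1%, within the range of the tumours, and peaks outside the window gave the other 51.2%. In no other library or region did a peak outside the window add to coverage. The 89.4% in switched-off tumour 1 came from a peak at 29209582 to 29216288, most of which lay before the window start at 29215000. The differences below rest in part on switched-off tumours 1 and 2. None of the comparisons passed. The difference was 17.8 ± 16.2 points for tumours against control liver (limma, adjusted p = 0.488) and 36.1 ± 17.5 for switched-off tumours against tumours (limma, adjusted p = 0.288). For switched-off tumours against control liver it was 53.9 ± 17.5 points (limma, adjusted p = 0.0556), and it passed without switched-off tumour 3.

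H3K4me3 marked Cdkn1a in every library. In the region chr17:29227331-29233264 control livers had 34.6%, 40.0%, 43.3% and 38.0% coverage. Tumours had 47.1%, 73.7%, 94.0% and 41.7%, and switched-off tumours 95.9%, 94.3% and 86.2%. Switched-off tumours lay above all control livers, whereas tumours 1 and 4 lay close to the control livers and tumour 3 lay within the range of the switched-off tumours. Peaks of switched-off tumours were wider than those of control livers on both sides, and more so upstream. H3K4me3 peaks began between 29230348 and 29230583 in control livers, at 29230300, 29228641, 29227331 and 29230353 in the tumours, and between 29227575 and 29228061 in switched-off tumours. Their last bases lay between 29232633 and 29232918 in control livers and between 29233178 and 29233264 in switched-off tumours. In tumours 1 to 4 they lay at 29233094, 29233012, 29232906 and 29232826.

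Coverage by H3K4me3 at Cdkn1a was 53.2 ± 11.0 points higher in switched-off tumours than in control liver (limma, adjusted p = 0.00304). The differences of 25.1 ± 10.2 points for tumours against control liver (limma, adjusted p = 0.134) and 28.0 ± 11.0 points for switched-off tumours against tumours (limma, adjusted p = 0.0782) did not pass. By score rank within its own list, the best H3K4me3 peak of the window stood at percentiles 23.6 to 37.4 in control livers. In tumours it stood at 61.8 to 87.3 and in switched-off tumours at 76.9 to 90.4, which was not tested. At the upstream region, chr17:29213202-29219491, control livers had 15.4%, 19.6%, 24.8% and 24.0%, tumours 51.8%, 37.3%, 40.9% and 40.0%, and switched-off tumours 78.7%, 87.1% and 51.2%. The control livers lay below all tumours there, while switched-off tumour 3 lay just below tumour 1. The difference between tumours and control liver was 21.6 ± 8.71 points (limma, adjusted p = 0.133). Switched-off tumours exceeded tumours by 29.9 ± 9.41 points (limma, adjusted p = 0.0361) and control liver by 51.4 ± 9.41 points (limma, adjusted p = 0.00141). The call against tumours was lost without tumour 2, 3 or 4 (limma, adjusted p from 0.0660 to 0.0758), without switched-off tumour 1 (0.108) or 2 (0.152), and with the wild-type control livers alone (0.0549). With mean coverage as a covariate, the calls against control liver were lost at the upstream region (limma, adjusted p = 0.293) and at Cdkn1a (0.135). By the blocks of dense signal listed inside each peak, switched-off tumours exceeded tumours by 25.9 ± 4.26 points at chr17:29230089-29233126 (limma, adjusted p = 0.00041). At chr17:29214613-29216338 the excess was 47.8 ± 8.77 points (limma, adjusted p = 0.000801). That comparison called 73.1% of all H3K4me3 block regions higher. Tumours did not pass against control liver at these block regions (limma, adjusted p = 0.0734 and 0.237).

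Of the 2 H3K4me3 regions in the Cdkn1a window, limma called none higher in tumours than in control liver, although both had an unadjusted limma p under 0.05. Fisher's exact test on presence could not call them, since every library had a peak in both. In that comparison 8.13% of 19506 regions were called higher and in 10.3% the tumours lay wholly above control livers. Against tumours 1 of the 2 was called higher in switched-off tumours, where 27.7% of all regions were, and against control liver both were, where 41.2% of all regions were and 39.8% did not overlap. The median difference between switched-off tumours and tumours was 15.8 points over the 5 H3K4me3 regions of both windows and 16.6 points over all regions. The part of the longer switched-off H3K4me3 lists in these differences was not tested.

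H3K27ac coverage at Cdkn1a was higher in tumours and in switched-off tumours than in control liver. Its peaks merged into a single region, chr17:29203717-29235761, because a peak of tumour 2 joined the upstream group to the group at Cdkn1a. Control livers had 9.03%, 0, 52.6% and 26.8% coverage, tumours 86.6%, 80.8%, 86.0% and 86.0%, and switched-off tumours 71.3%, 89.5% and 73.9%. Control livers were uneven and all lay below the tumours and the switched-off tumours, which overlapped with each other. Control liver 2 had no H3K27ac peak in the window. The difference was 62.7 ± 11.2 points for tumours against control liver (limma, adjusted p = 0.00188), where 9.88% of 16039 regions were called higher and in 12.2% the groups did not overlap. It was 56.1 ± 12.1 points for switched-off tumours against control liver (limma, adjusted p = 0.00313), where 30.6% were called higher and 29.0% did not overlap, and this call was lost with mean coverage as a covariate (28.8 points, limma adjusted p = 0.197). Between switched-off tumours and tumours it was -6.63 ± 12.1 points (limma, adjusted p = 0.778), with an unadjusted p above 0.05. In that comparison 0.505% of regions were called lower. Fisher's exact test on presence could not call it, since every tumour and switched-off tumour had a peak.

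The H3K27ac lists also give the blocks of dense signal inside each wide peak, which separate the upstream sites from Cdkn1a. At Cdkn1a the block region chr17:29230664-29233028 was covered by 0, 0, 40.5% and 19.4% in control livers, 75.9%, 69.2%, 80.6% and 88.6% in tumours and 66.6%, 97.8% and 77.8% in switched-off tumours. At upstream site 1, chr17:29214768-29216974, coverage was 12.2%, 0, 21.3% and 0 in control livers, 97.9%, 90.7%, 67.3% and 74.9% in tumours and 90.9%, 100% and 83.7% in switched-off tumours. At upstream site 2, chr17:29217839-29219306, it was 0 in all 4 control livers, 46.9%, 57.6%, 74.1% and 74.9% in tumours and 0, 55.9% and 0 in switched-off tumours. Site 2 was thus the place where switched-off tumours 1 and 3 had no block while every tumour had one.

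Tumours exceeded control liver at all 3 of these block regions, by 63.6 ± 11.9 points at Cdkn1a (limma, adjusted p = 0.00322), 74.3 ± 10.7 at site 1 (limma, adjusted p = 0.000719) and 63.4 ± 13.7 at site 2 (limma, adjusted p = 0.00766). Of 37452 block regions, 8.98% were called higher in this comparison. Switched-off tumours were lower than tumours at site 2, by -44.7 ± 14.8 points (limma, adjusted p = 0.0381), where 1.49% of all block regions were called lower and 26.0% higher. The change at Cdkn1a was 2.16 points (limma, adjusted p = 0.972) and at site 1 it was 8.84 points (limma, adjusted p = 0.599). Whether site 2 differs from the others in this respect was not tested.

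**Figure D3:**
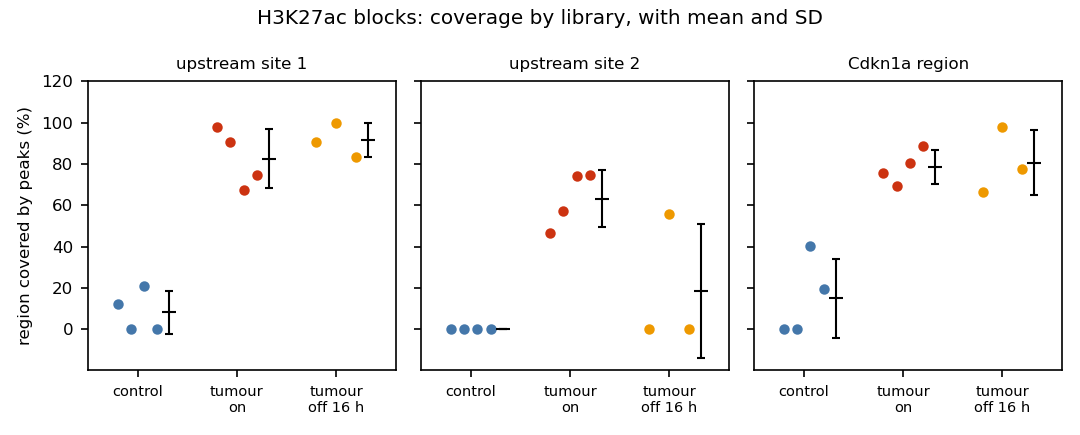
Percent of each H3K27ac block region near Cdkn1a covered by the blocks of each library, in control livers, tumours and switched-off tumours, with the mean and SD beside the points. At upstream site 2 the control livers and 2 of the 3 switched-off tumours are at 0 and the 4 tumours lie between 46.9% and 74.9%.

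The Myc regions of tumours were compared with the other marks position by position. The Myc region at Cdkn1a was covered by H3K4me3 to 85.0 ± 8.02% (SD, n = 4) in control livers, 96.7 ± 4.13% (SD, n = 4) in tumours and 100% in all 3 switched-off tumours. H3K27ac peaks covered it fully in 2 of 4 control livers and in all tumours and switched-off tumours. Both marks were therefore also found in the groups with few or no Myc peaks there, 1 of 4 control livers and no switched-off tumour. Myc and the marks were mapped in different libraries. At site 2 no library had an RNAPII peak, no control liver or tumour had H3K4me3, and 2 of 3 switched-off tumours did. By blocks only switched-off tumour 1 had H3K4me3 there, in a peak at percentile 7.73 of its list. In switched-off tumour 2 site 2 lay under a wide H3K4me3 peak whose blocks all lay upstream of it. H3K27ac peaks covered site 2 in 1 of 4 control livers, 4 of 4 tumours and 3 of 3 switched-off tumours, so in the last group the wide H3K27ac peak was there and the dense block mostly was not.

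In the Cdkn2a and Cdkn2b window H3K4me3 formed 3 regions, as many as the starts RefSeq lists there, and they were assigned to these starts by their order along the chromosome. The first, chr4:88927215-88928761, was taken as the inner Cdkn2a start (Ink4a), the second, chr4:88939461-88942512, as the outer Cdkn2a start (Arf), and the third, chr4:88954675-88958680, as Cdkn2b. This assignment was not checked by coordinates, since the RefSeq table is of another build.

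**Figure D4:**
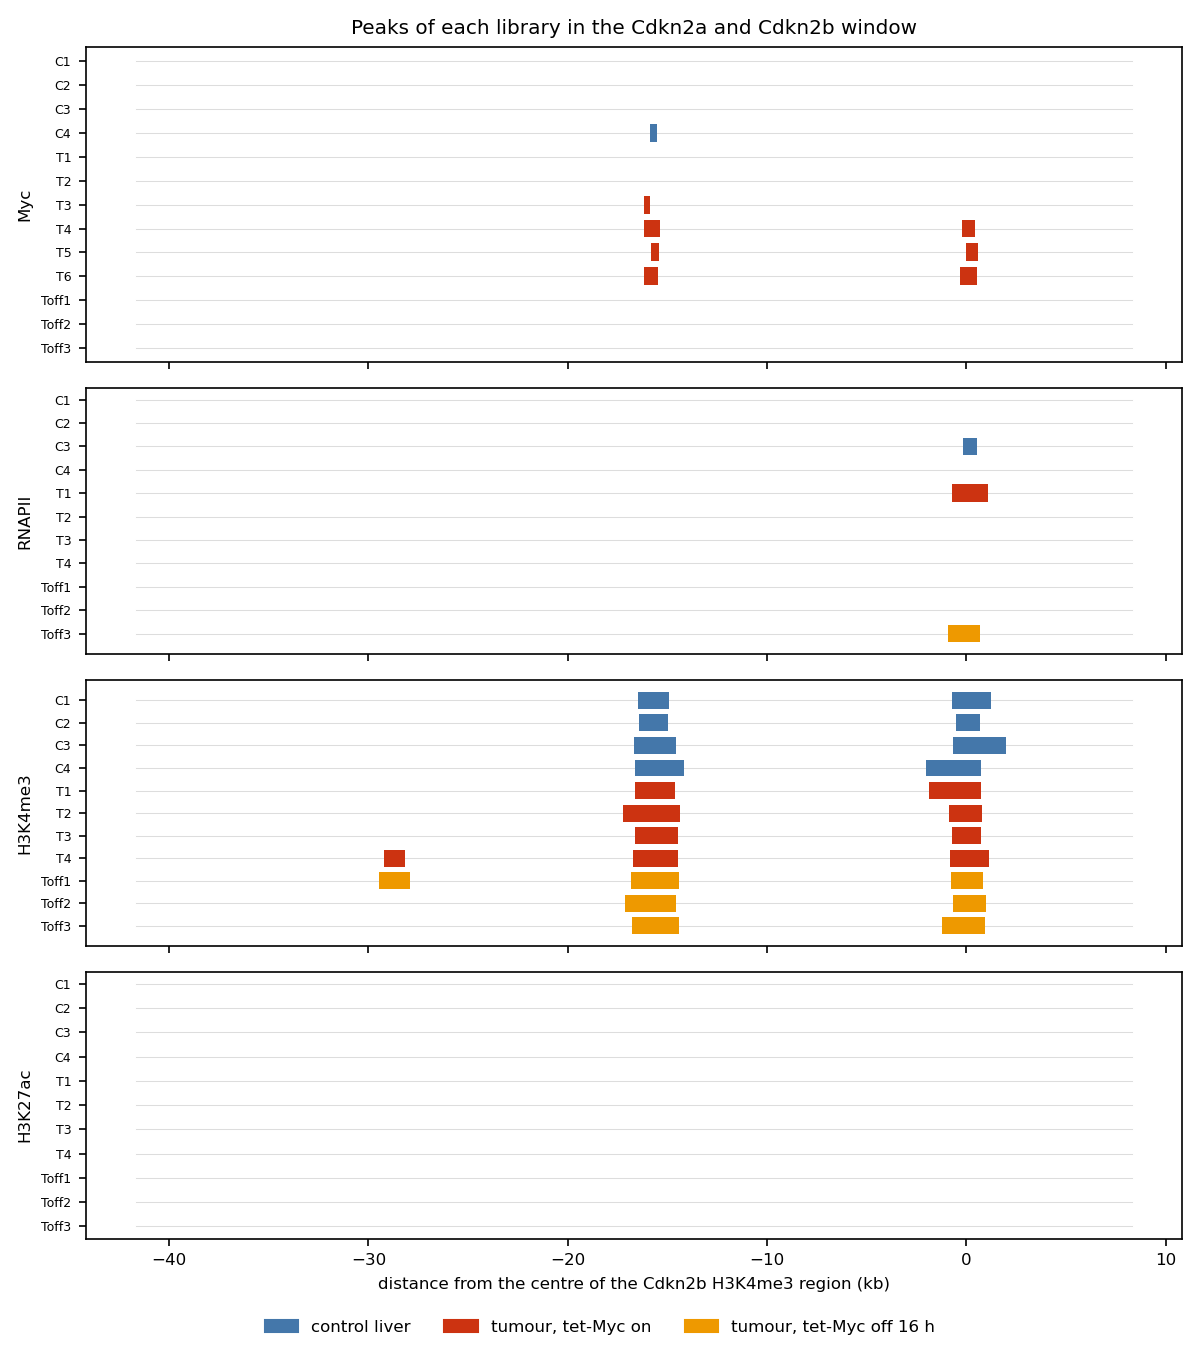
Peaks of each library in the Cdkn2a and Cdkn2b window by antibody (rows are libraries, C control liver, T tumour, Toff switched-off tumour) against distance in kb from the centre of the H3K4me3 region at Cdkn2b. H3K4me3 peaks stand at 2 places in all 11 libraries, and no library has an H3K27ac peak.

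At the Arf start, H3K4me3 covered 50.6%, 48.5%, 69.8% and 80.2% in control livers, 65.9%, 93.7%, 70.4% and 74.9% in tumours and 79.8%, 83.5% and 77.6% in switched-off tumours. At Cdkn2b it covered 49.1%, 29.2%, 66.8% and 68.5% in control livers, 65.2%, 41.1%, 36.4% and 48.6% in tumours and 40.5%, 41.1% and 53.7% in switched-off tumours. The groups overlapped at both starts. Control livers varied more than the other groups, with control livers 1 and 2 the lowest at the Arf start.

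No H3K4me3 difference in this window passed. At the Arf start tumours differed from control liver by 14.0 ± 8.03 points (limma, adjusted p = 0.293), switched-off tumours from tumours by 4.03 ± 8.68 (limma, adjusted p = 0.779) and from control liver by 18.0 ± 8.68 (limma, adjusted p = 0.112). At Cdkn2b the differences in the same order were -5.57 ± 10.2, -2.73 ± 11.0 and -8.30 ± 11.0 points (limma, adjusted p = 0.834, 0.892 and 0.560). None of the 9 comparisons over the 3 starts had an unadjusted p under 0.05. Fisher's exact test could not call the Arf start or Cdkn2b, where every library had a peak, and did not call the inner start. The sign at Cdkn2b depended on what was measured: by the dense blocks inside the peaks, switched-off tumours covered 90.3% to 100% of the block region chr4:88956086-88957523, tumours 66.6% to 74.9% and control livers 45.5% to 74.1%. By blocks, switched-off tumours exceeded tumours there by 22.5 ± 6.28 points (limma, adjusted p = 0.00815) and control liver by 32.2 ± 6.28 (limma, adjusted p = 0.000551), where 73.1% and 82.5% of all 21930 H3K4me3 block regions were called higher. At the Arf start blocks were higher in switched-off tumours than in control liver by 43.7 ± 13.0 points (limma, adjusted p = 0.00814).

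The inner Cdkn2a start, that of Ink4a, was marked by H3K4me3 in tumour 4, at 70.1%, and in switched-off tumour 1, at 100%, and in none of the other 9 libraries. No comparison passed there (limma, adjusted p = 0.703, 0.674 and 0.282). Both peaks ranked low in their lists, at percentiles 0.843 and 2.14 of the authors' score. The Arf peaks of the same libraries stood at percentiles 56.3 and 53.7.

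Myc was called at the Arf start, chr4:88940500-88941326, in 4 of 6 tumours. Tumours 1 to 6 had 0, 0, 36.2%, 100%, 46.8% and 82.2% coverage, control liver 4 had 39.8%, and the other 3 control livers and all 3 switched-off tumours had 0. Control liver 4 exceeded 3 of the tumours, so these groups overlapped. At Cdkn2b, chr4:88956358-88957243, tumours 4, 5 and 6 had 76.6%, 67.0% and 96.3%, and the other 10 libraries had 0. At both starts the tumours with a Myc peak were those with the longest lists.

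Neither Myc region on chromosome 4 was called between tumours and control liver. The difference was 34.3 ± 15.8 points at the Arf start (limma, adjusted p = 0.0604) and 40.0 ± 19.3 at Cdkn2b (limma, adjusted p = 0.0741), and both were called when tumour 1 or tumour 2, which had no peak at either, was left out. Switched-off tumours were lower than tumours by -44.2 ± 17.3 points at the Arf start (limma, adjusted p = 0.0265), while the -40.0 ± 21.1 points at Cdkn2b did not pass (limma, adjusted p = 0.112). The Arf call was lost without tumour 4 (limma, adjusted p = 0.196), tumour 6 (0.102), control liver 4 (0.0804) or any 1 switched-off tumour (0.0927 to 0.0928), and with the wild-type control livers alone (0.0602). At Cdkn2b the difference from tumours became a call without tumour 1, 2 or 3. With tumour lists cut to 19269 peaks, neither start had a Myc peak in any tumour, against 4 tumours at the Arf start and 3 at Cdkn2b in the full lists. Within the full lists, the best peak of the window stood between percentiles 15.4 and 48.3 in those tumours and at 0.647 in control liver 4.

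RNAPII had no peak at either Cdkn2a start in any of 11 libraries. At Cdkn2b, chr4:88955778-88957769, a single library of each group had a peak: control liver 3 at 35.2%, tumour 1 at 91.8% and switched-off tumour 3 at 79.2%. The groups overlapped, and the differences of 14.1 ± 21.8, 3.46 ± 23.5 and 17.6 ± 23.5 points did not pass (limma, adjusted p = 0.713, 1 and 0.688). H3K27ac had no peak in the window in any of 11 libraries.

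**Figure D5:**
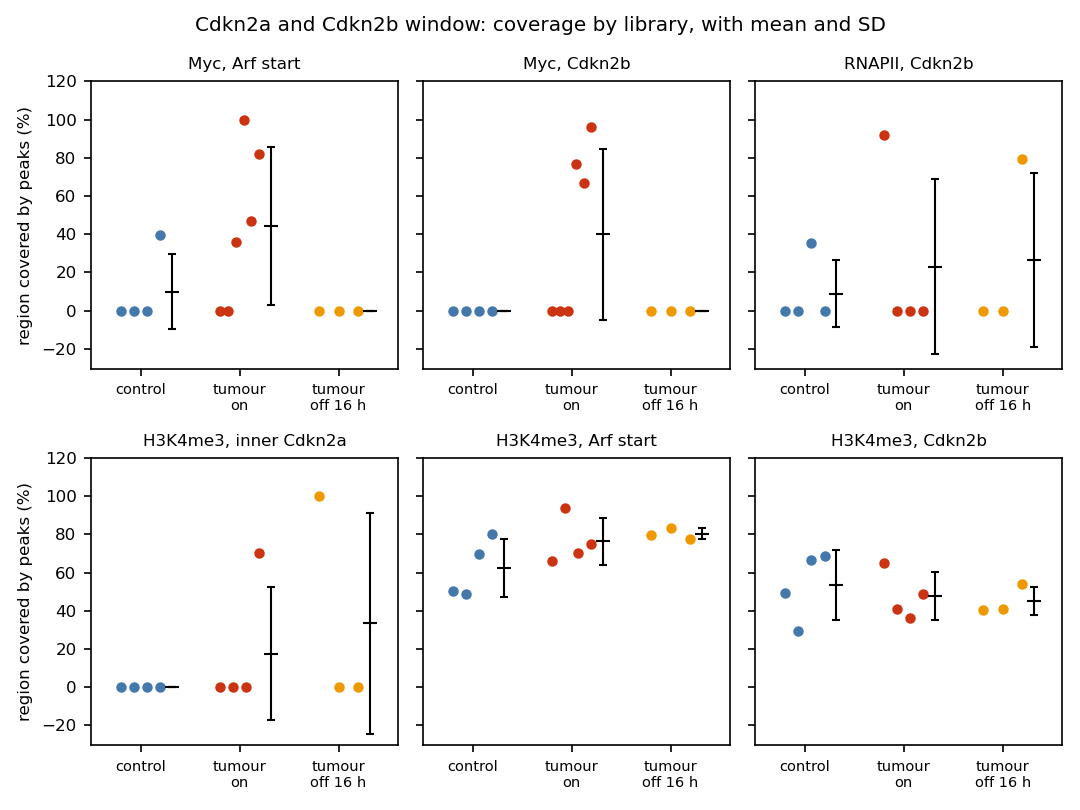
Percent of each merged region in the Cdkn2a and Cdkn2b window covered by peaks, with a point for each library in control livers, tumours and switched-off tumours and the mean with its SD beside the points. H3K4me3 groups overlap at both the Arf start and Cdkn2b, and Myc peaks at Cdkn2b occur in 3 of 6 tumours.

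H3K4me3 without H3K27ac was uncommon among constant H3K4me3 regions. The Arf and Cdkn2b regions had an H3K4me3 peak in all 11 libraries, as 11086 H3K4me3 regions did, and 409 of these (3.69%) overlapped no H3K27ac peak of any library. The Arf region also overlapped no RNAPII peak of any library, a combination found at 218 of the 11086 (1.97%). Both had a Myc peak in some library, as did 67.7% of the 409 regions and 97.3% of the 11086. The Myc regions at both starts were fully covered by H3K4me3 in all 11 libraries.

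The share of a whole window under peaks sums up the contrast between the genes. In the Cdkn1a window RNAPII covered 10.6 ± 4.05% (SD, n = 4) in control livers, 26.8 ± 9.41% (SD, n = 4) in tumours and 31.4 ± 0.572% (SD, n = 3) in switched-off tumours. H3K27ac covered 17.5 ± 17.0%, 59.7 ± 2.20% and 50.8 ± 9.87% of it in the same groups, and H3K4me3 11.8 ± 1.24%, 17.6 ± 5.04% and 28.3 ± 5.48%. Myc covered 0.317 ± 0.635% (SD, n = 4) in control livers, 12.4 ± 7.73% (SD, n = 6) in tumours and 0 in switched-off tumours. In the Cdkn2a and Cdkn2b window H3K4me3 covered 8.08 ± 2.35%, 9.03 ± 1.41% and 9.54 ± 1.48% in the 3 groups, Myc covered 1.44 ± 1.43% in tumours, and H3K27ac covered none. These shares were not tested between windows, which differ in length and in gene number.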

How the data were processed

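Peak lists were deposited per library, so peaks were not called on pooled samples. The submitters' processing notes name BWA 0.6.2, SAMtools and the build mm9. For the peak caller and its threshold, details are not given in the sources used here. In the Myc, H3K4me3 and H3K27ac lists the score of each peak is the authors' own, and the RNAPII lists held positions only. The input sample was not analysed here. The members and lists were chosen with earlier results of these data known, and every merged region of the windows is described.

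Coverage percent per merged region was fitted with limma 3.58.1 (R 4.3.3; trended moderated test, 3 groups of an antibody in 1 fit, no covariate) over all regions with a peak in at least 2 libraries. A call needed a two-sided p below 0.05 after Benjamini-Hochberg adjustment. In the main Myc fit the SE of a region came from the trend of variance with mean coverage. It therefore does not measure the scatter of the libraries at that region. The fit was also run on simulated data with differences added. The outcome is not given here, so it bears on no result above. Merging, Fisher's exact test on presence and plots used Python 3.11.15, numpy 2.4.6, pandas 2.3.3, scipy 1.17.1 and matplotlib 3.10.9. Alternatives left out each library, used wild-type control livers alone, added replicate number or mean coverage to the fit, merged peaks up to 500 bp apart, dropped the filter on libraries, kept peaks above the median score, or used blocks of at least 2 bp. Replicate numbers were not used to pair the samples, since no comparison had every same-numbered pair correlated above 0.1. Such weak correlations cannot exclude a pairing. No mm9 annotation was at hand, so marker genes of liver cell types, other pathway genes and genes of like pattern were not used here. Sequences are from RefSeq, GRCm38.p6.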

Additional observations from a re-analysis of the deposited data

Results flagged for a closer look

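Single libraries stood apart from the rest of their group by Dixon's test, which at its 95% level picks out such a library by chance at times. Where no other library of the group had a peak, the test picks out the library with a peak whatever its coverage. Its result there was fixed in advance and restates only that no other library had a peak. Among the control livers this holds for Myc in control liver 4 and for RNAPII in control liver 3 at Cdkn2b. Controls: control liver 4 carried the only control Myc peaks, with 14.0% coverage at Cdkn1a and 39.8% at the Arf start, or 1.27% of the Cdkn1a window and 0.658% of the Cdkn2a and Cdkn2b window. Its Myc list, of 8499 peaks, was the longest of the controls. For RNAPII, control liver 2 had 42.9% coverage at Cdkn1a, and control liver 3 had 35.2% at Cdkn2b, which is 1.40% of that window.

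Tumours: tumour 6 covered all 100% of upstream Myc site 1 and had the longest Myc list. RNAPII tumour 1 was the only tumour with a peak at Cdkn2b, at 91.8% of the region and 3.66% of the window. H3K4me3 tumour 4 was the only tumour with a peak at the Ink4a start, at 70.1% by peaks and 90.4% by blocks. For RNAPII tumour 1 and H3K4me3 tumour 4 the result of Dixon's test was likewise fixed in advance, since no other tumour had a peak there. H3K27ac tumour 2 had 80.8% coverage of the merged region at Cdkn1a, below the other 3 tumours.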

How the results depend on the processing

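Over all alternatives, the single regions kept direction and side of the threshold in 694 cases, lost a call in 43, gained one in 23 and changed sign in 23. Called Myc regions were 3 for tumours against control liver and 3 for switched-off tumours against tumours, and each ranged from 2 to 5 on leaving out 1 library and was 1 with mean coverage as a covariate; the second was also 1 with the stricter score. That covariate differs between the groups. RNAPII had 1 call for tumours against control liver, 0 to 1 without 1 library, 0 with wild-type controls alone and 0 by Fisher's exact test. For RNAPII in switched-off tumours against control liver the 1 call became 1 to 2 without 1 library, 2 with the covariate and 0 by Fisher's test. H3K4me3 had 0 calls for tumours against control liver and 1 with the stricter score. Against tumours its 1 call in switched-off tumours became 0 to 1 without 1 library, 0 with wild-type controls, 0 with the replicate block, 0 with the covariate, 0 by Fisher's test and 4 by blocks. Against control liver its 2 calls became 2 to 3 without 1 library, 0 with the covariate, 0 by Fisher's test and 5 by blocks. H3K27ac calls went from 1 to 3 by blocks and 0 by Fisher's test (tumours against control liver), from 0 to 1 by blocks (switched-off tumours against tumours), and from 1 to 0 with the covariate, 2 with the stricter score, 2 by blocks and 0 by Fisher's test (switched-off tumours against control liver). Fisher's test called no region of RNAPII or either mark anywhere in the genome, and with 4 libraries against 4 or 3 it had 414 to 2385 regions with an unadjusted p under 0.05. Where every library compared had a peak, as for RNAPII and H3K4me3 at Cdkn1a, its result was fixed in advance. Calls lost by it there, which are counted above, therefore show nothing. The cause of the other changes was not tested.

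Sign changes, in percentage points, were these. With mean coverage as a covariate, Myc in tumours against control liver was -13.0 at the Arf start and -18.4 at Cdkn2b, and in switched-off tumours against tumours 5.38 and 21.2. H3K4me3 at the Arf start was -31.7 in switched-off tumours against tumours and -20.9 against control liver with it. With the replicate block, Myc in switched-off tumours against control liver was 5.22 at Cdkn1a and 6.02 at the Arf start, and RNAPII at Cdkn2b against tumours was -1.83. The block also ended the Myc call at the Arf start between switched-off tumours and tumours (-18.1 points, limma adjusted p = 0.373) and the upstream H3K4me3 call (adjusted p = 0.0757), and it made a call of Myc site 1 in the same comparison (-28.9 points, limma adjusted p = 0.000271). Same-numbered samples correlated from -0.163 to 0.152 over the 4 antibodies, so the numbers were not used for pairing, though this cannot exclude one. On leaving out 1 library, RNAPII at Cdkn2b ranged from -8.80 (without tumour 1) to 22.9 for tumours against control liver. It ranged from -22.9 (without switched-off tumour 3) to 26.4 for switched-off tumours against tumours, with -4.18 without tumour 2, 3 or 4, and from -8.80 (without switched-off tumour 3) to 30.8 against control liver. H3K4me3 at Cdkn2b was 18.6 with the stricter score and 9.70 by blocks for tumours against control liver, 17.0 and 22.5 for switched-off tumours against tumours, where it ranged from -7.05 to 3.07 (without tumour 1) on leaving out 1 library, and 35.6 and 32.2 for switched-off tumours against control liver. H3K27ac at Cdkn1a was 2.16 by blocks in switched-off tumours against tumours.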
